A study of Mus musculus with 6 samples.

Results

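Among the brain endothelial cells of these mice, 2672 of 22474 (11.9%) carried RNA of at least 4 of 6 genes that interferon induces, namely Ifit1, Ifit2, Ifit3, Ifit3b, Rsad2 and Isg15. They are called interferon-high endothelial cells here. The cells were found in 3 steps. A barcode was kept with at least 1000 UMIs (unique molecular identifiers, one for each captured RNA molecule) and at most 15% of them mitochondrial. It was taken as endothelial where at least 3 of Pecam1, Cdh5, Flt1, Ly6c1 and Esam were detected and where Vtn, Rgs5, Acta2, Tagln, C1qa and Ctss, markers of mural cells and microglia, summed to at most 2 UMIs. It was taken as interferon-high where at least 4 of the 6 interferon-induced genes had a UMI. The cells were thus chosen by the measured UMIs of these 6 genes, so the levels of the 6 are given as a description, and only other genes, vessel position and the study's groups were tested.

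The study profiled single cells of brain microvessels from mice in which claudin-5, the main sealing claudin of blood-brain barrier tight junctions, can be deleted from endothelium. The iECKO mice (inducible endothelial knockout) were C57Bl6 animals homozygous for a floxed Cldn5 allele and for an R26 YFP reporter, and carried Cdh5-creERT2, a tamoxifen-activated Cre driven by the promoter of VE-cadherin, an endothelial gene. The control mice carried the same floxed allele and reporter without the Cre. Mice of both groups received tamoxifen by gavage, 100 µl of a 20 mg/ml solution a day for 3 days, at about 3 months of age, and each group gave 3 libraries of microvessels pulled out with PECAM1-coated beads. How many animals went into a library is not given, so p-values measure the spread between libraries, which may be technical.

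Interferons are secreted antiviral proteins. Type I interferons bind the receptor pair IFNAR1 and IFNAR2, whose kinases activate transcription factors that bind interferon-stimulated response elements, short sequences in the promoters of the genes they switch on. Interferon gamma acts through a receptor of its own, IFNGR1 and IFNGR2. Brain endothelial cells carry both receptors and face the blood, and the induced genes include blockers of viral RNA and translation, enzymes that attach the ubiquitin-like protein ISG15, GTPases directed at intracellular pathogens, and the machinery of MHC class I presentation.

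The 6 genes that define the cells are effectors of this response. Ifit1, Ifit2, Ifit3 and Ifit3b encode tetratricopeptide proteins that bind foreign RNA or partner with each other, Rsad2 encodes viperin, a radical SAM enzyme that makes a chain-terminating nucleotide, and Isg15 encodes the ubiquitin-like modifier itself. In the GRCm38 annotation the Ifit genes lie on one strand of chromosome 19, Ifit2 at chr19:34550694-34576419, Ifit3 at chr19:34583531-34588731, Ifit3b at chr19:34607970-34613401 and Ifit1 at chr19:34640871-34650009, while Rsad2 lies at chr12:26442746-26456452 and Isg15 at chr4:156199424-156200818. The promoter windows of the 6 genes (250 bases before to 50 after the start site, RefSeq, GRCm38.p6) were searched on both strands for GAAANNGAAA, the core of the interferon-stimulated response element, with overlapping matches counted. Of 32851 mouse promoter windows, 3.44% held it, and 5 of the 6 genes did. A stretch around the matches is shown for 4 of them, because these letters recur in the promoters of 5 of the 6 genes. Each is written 5′ to 3′ on the gene's own strand with the matches in capitals; a match on the other strand reads TTTCNNTTTC.
Ifit1, chr19:34640760-34640838, plus strand: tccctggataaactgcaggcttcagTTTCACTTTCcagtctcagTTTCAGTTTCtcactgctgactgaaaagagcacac
Ifit3, chr19:34583348-34583441, plus strand: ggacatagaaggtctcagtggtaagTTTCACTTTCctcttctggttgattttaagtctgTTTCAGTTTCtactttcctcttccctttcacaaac
Rsad2, chr12:26456538-26456597, minus strand: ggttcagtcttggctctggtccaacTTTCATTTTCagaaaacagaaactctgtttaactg
Isg15, chr4:156200850-156200921, minus strand: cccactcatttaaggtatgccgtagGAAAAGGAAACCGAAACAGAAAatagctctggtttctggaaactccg
The matches began 85 to 104 bases before the start site in Ifit1, 122 to 156 in Ifit3, 120 in Rsad2 and 66 to 78 in Isg15, where 3 matches overlapped in one run. Ifit3b carried the stretch of Ifit3 letter for letter at chr19:34607744-34607837. The windows of Ifit2 held no match.

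Ifit3 and Ifit3b are near copies, with 98.0% identity over 1697 aligned transcript bases, but of the last 300 bases of each, 50 aligned, with 37 identical. How reads of the pair were split between the copies is uncertain. Counting the pair as 1 gene and asking for 4 of 5 gave shares of 6.98, 6.64 and 20.4% in the iECKO libraries and 8.60, 7.92 and 12.9% in the control libraries.

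The libraries held 2714 to 7420 barcodes and 15727366 to 49350802 UMIs each. Pairs of libraries shared 0 to 12 barcode sequences, at most 0.207% of a library, and no pair shared more than 1 interferon-high barcode. Cldn5, the targeted gene, stood at 2568, 2147 and 2756 CPM (UMI counts scaled to a common library size, for tested genes with edgeR's TMM factors) in the interferon-high cells of iECKO libraries, against 4792, 4569.8 and 4992 CPM in those of control libraries. The libraries did not overlap, but Cldn5 RNA remained in every iECKO library. The YFP reporter feature had 0 UMIs. Library iECKO 3 stood apart by its share of interferon-high cells, and results that rest on it are given with and without it.

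The interferon-high cells were endothelial by genes outside the rule. The summed level of 22 other endothelial and barrier genes was 26223 to 40698 CPM in them and 24931 to 38846 CPM in matched cells of the same libraries. The share of endothelial cells that met the rule followed depth closely. Interferon-high cells had a median of 9518, 9060 and 10739 UMIs in the iECKO libraries and 6908, 7275 and 10864 UMIs in the control libraries, against 4050, 4840 and 5344 UMIs and 3629, 3732 and 4568 UMIs in the other endothelial cells of the same libraries. In iECKO 3, 1.89% of cells with 1000 to 2000 UMIs met the rule and 58.0% of those with at least 16000 UMIs; in control 1 the shares were 2.09% and 38.2%. For this reason each interferon-high cell was matched to 1 other endothelial cell of its library within 10% of its UMIs, which gave 2608 pairs and left 64 cells unmatched.

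The number of these genes detected showed no gap that set the cells apart. Over all endothelial cells, 7808 had none of the 6 genes, 5948 had 1, 3718 had 2, 2328 had 3, 1466 had 4, 798 had 5 and 408 had all 6, a steady decline with no gap at the threshold. Cells just outside it, with 3 genes, had 142 to 197 CPM of Ifit1 and 173 to 376 CPM of Isg15 over the libraries; cells just inside, with 4, had 190 to 302 CPM of Ifit1 and 254 to 540 CPM of Isg15. Detection followed depth, so these counts cannot tell whether a separate class exists. The name interferon-high stands here for the upper end of this range. Whether interferon had acted on these cells was not measured.

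Each of the 6 genes was concentrated in the interferon-high cells. Ifit1 stood at 260, 280 and 317 CPM in the interferon-high cells of the iECKO libraries and 337, 294 and 262 CPM in those of the control libraries, against 60.8, 54.6 and 78.3 CPM and 90.0, 73.7 and 80.2 CPM in the other endothelial cells. Isg15 stood at 394, 317 and 411 CPM and 563, 381 and 355 CPM in interferon-high cells, against 119, 79.5 and 132 CPM and 214, 134 and 134 CPM in the other endothelial cells, again iECKO libraries first. For neither gene did the ranges overlap. The cells were chosen by these genes and the other cells were not matched on UMIs, so the gap is a description. Isg15 was detected in 93.0 to 98.8% of interferon-high cells, Ifit1 in 90.1 to 95.3%, Ifit3 in 81.8 to 87.2%, Rsad2 in 74.1 to 82.4%, Ifit3b in 51.6 to 62.0% and Ifit2 in 39.4 to 56.6%. Single cells reached 73 UMIs of Ifit1, 78 of Rsad2 and 76 of Isg15, all in iECKO 1.

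The 6 genes also moved together when each was left out of the rule. Cells with at least 4 of the remaining 5 genes were matched on UMIs to the other endothelial cells of the library, and the gene left out was compared. Rsad2 was 2.35 to 6.85 times as high in the chosen as in the matched cells over the 6 libraries, Ifit1 2.78 to 5.41 times, Isg15 2.84 to 5.85 times, Ifit2 3.10 to 7.44 times and Ifit3 3.40 to 9.08 times. Ifit3b was 3.31 to 46.0 times as high. Its near copy Ifit3 stayed in the rule when Ifit3b was left out, and Ifit3b likewise for Ifit3. Each gene was higher in 6 of 6 libraries, which is given without a test because all 6 belong to the rule. The same rule was met by 2 of 752 microglia (0.266%) and 1 of 854 pericytes (0.117%). With cells thinned to 2000 UMIs, it was met by 508 of 20216 endothelial cells (2.51%), 1 of 596 microglia (0.168%) and 0 of 662 pericytes.

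**Figure D1:**
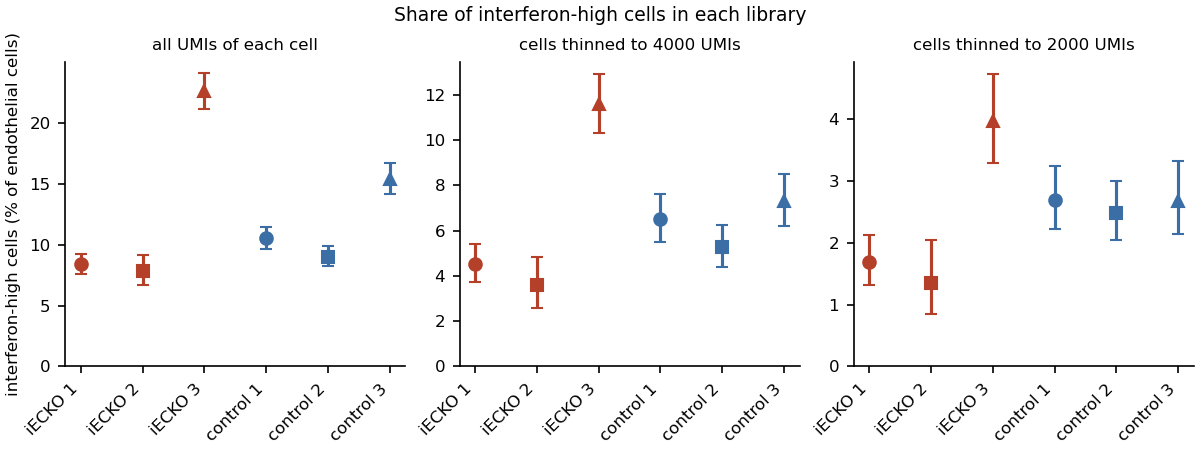
Share of interferon-high cells among endothelial cells (percent, y axis) in each library (x axis; iECKO red, control blue), with all UMIs, and with cells thinned to 4000 and to 2000 UMIs. Bars are exact 95% binomial intervals, which cover counting error only; iECKO 3 stands highest in each panel.

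The share of interferon-high cells did not separate the groups. It was 8.40% (401 of 4773 cells, exact 95% interval 7.63 to 9.22), 7.85% (142 of 1808, 6.66 to 9.19) and 22.6% (698 of 3091, 21.1 to 24.1) in the iECKO libraries. In the control libraries it was 10.5% (490 of 4653, 9.66 to 11.4), 9.02% (444 of 4925, 8.23 to 9.85) and 15.4% (497 of 3224, 14.2 to 16.7). The first and second iECKO libraries lay below every control library and iECKO 3 above all of them. The means were 12.9 ± 8.35% in iECKO and 11.7 ± 3.34% in control libraries (SD, n = 3 each), a difference of 1.29 percentage points (exact permutation test, two-sided p = 1, with 0.1 the smallest possible). Without iECKO 3 the difference was −3.53 points. Same-numbered libraries, which varied together across genes, differed by −2.13, −1.16 and 7.17 points.

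At equal depth the groups did not separate either with all libraries included. Thinned to 4000 UMIs, the shares were 4.51, 3.58 and 11.6% in the iECKO libraries and 6.50, 5.28 and 7.29% in the control libraries, while the same cells unthinned gave 13.4, 11.3 and 27.0% and 16.7, 14.4 and 21.1%. The thinned means differed by 0.198 points (6.55 ± 4.37% in iECKO, 6.36 ± 1.01% in control; exact permutation p = 1, n = 3 each). Thinned to 2000 UMIs, iECKO libraries averaged 2.33 ± 1.42% and control libraries 2.62 ± 0.117%, with the same library highest. The panels of shares by library show iECKO 3 highest at every depth. With all UMIs, control 3 also lay clear of the libraries below it. Thinned to 4000 and to 2000 UMIs, iECKO 1 and iECKO 2 lay below every control library. Without iECKO 3 the groups therefore did not overlap at these depths, but the thinned shares were not tested without that library.

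Interferon RNA itself was scarce in these libraries. Of 21 interferon genes in the annotation, all together had 18 UMIs over all barcodes, 5 of them in endothelial cells and 2 in interferon-high cells (1 of Ifnab and 1 of Ifnk, both in control 3). Ifng, the type II interferon of lymphocytes and NK cells, had 12 of the 18 UMIs, 8 of them in iECKO 3 and 0 in interferon-high cells. Ifnb1 had 1 UMI. RNAs this scarce could be present and undetected at this depth.

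Receptor RNA was slightly higher in interferon-high cells. Ifnar1 stood at 243, 319 and 253 CPM in the iECKO libraries and 162, 265 and 240.02 CPM in the control libraries in interferon-high cells, against 212, 303 and 212 CPM in the iECKO libraries and 158, 226 and 212 CPM in the control libraries in matched cells. The groups overlap across libraries, but the interferon-high cells were higher within each of the 6. The log2 difference was 0.17 ± 0.03 (SE) for Ifnar1 (adjusted p = 0.000878), 0.14 ± 0.03 for Ifnar2 (adjusted p = 0.0117) and 0.19 ± 0.04 for Il10rb, a subunit shared with the interferon lambda and IL-10 receptors (adjusted p = 0.00146), all in edgeR's quasi-likelihood test with Benjamini-Hochberg adjustment over 13767 genes and library as a block. The subunits for interferon gamma did not pass, with log2 differences of 0.03 ± 0.05 for Ifngr1 and −0.17 ± 0.08 for Ifngr2 (adjusted p = 0.885 and 0.275). Ifnlr1 was too low to test.

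Across all genes that the rule did not use, 342 of 13767 (2.48%) were higher in interferon-high than in matched cells and 277 (2.01%) lower at an adjusted p under 0.05, together 4.5% of the genes. Of the 342, 81 belonged to 5 lists of interferon-induced genes (antiviral effectors, ISG15 conjugation, sensors and signalling, GTPases, MHC class I), 20 were higher by a log2 difference of at least 1 and 238 by less than 0.5. The matched cells still held a mean of 1.08 to 1.70 rule genes each, so these differences are between the top and the middle of a range. The gene lists were chosen with results of these data in view, so their counts are descriptions and are to be read against the 2.48% of all genes.

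**Figure D2:**
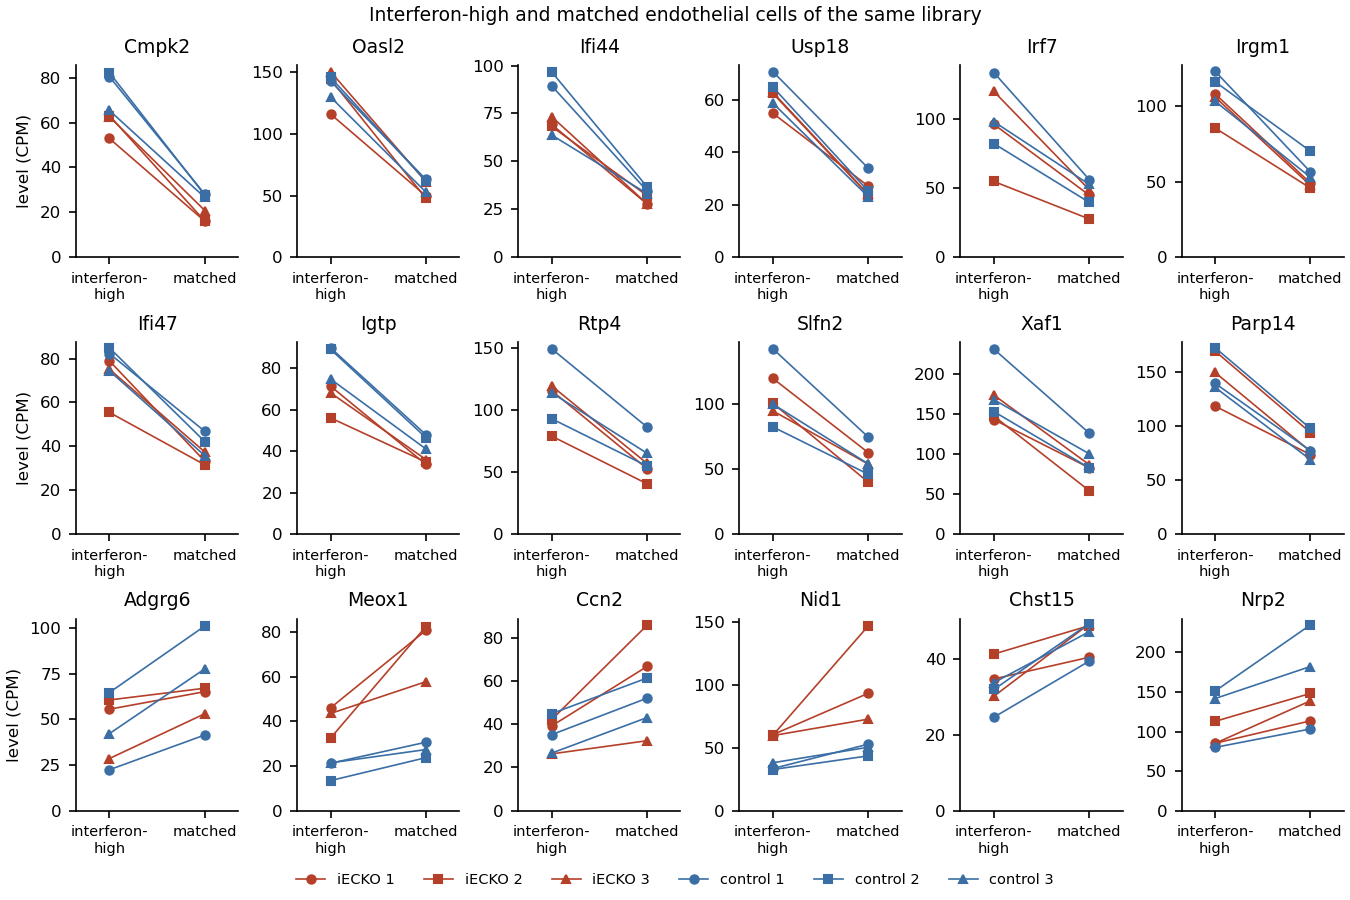
Level (CPM, y axes from 0) of the 12 genes that were highest by the naming rule and 6 of those that were lowest, in interferon-high cells and in matched cells of the same library, joined by a line (iECKO red, control blue; markers show the replicate number). Every line of the upper 12 panels falls to the right and every line of the lower 6 rises.

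Most antiviral effectors rose. Of 59 tested, 43 were higher, 0 lower, and the list's median log2 difference was 0.54, against 0.0003 over all genes. Cmpk2, a mitochondrial nucleotide kinase next to Rsad2 in the genome, led the well-expressed genes, at 52.9, 63.1 and 62.6 CPM in the iECKO libraries and 80.5, 82.2 and 65.4 CPM in the control libraries in interferon-high cells, against 16.1, 16.1 and 20.8 CPM in the iECKO libraries and 28.1, 27.7 and 26.7 CPM in the control libraries in matched cells. The lowest interferon-high value lay above the highest matched one, and the log2 difference was 1.54 ± 0.07 (adjusted p = 1.64e-19, edgeR). Oasl2, of the oligoadenylate synthetase family, stood at 116, 144 and 150.4 CPM in the iECKO libraries and 143, 146 and 129.8 CPM in the control libraries in interferon-high cells, against 49.7, 47.7 and 61.2 CPM in the iECKO libraries and 63.0, 61.8 and 52.7 CPM in the control libraries in matched cells. Again no library overlapped, with a log2 difference of 1.28 ± 0.05 (edgeR adjusted p = 2.08e-21). Its relatives Oasl1 and Oas2 were scarcer and rose by 2.43 ± 0.15 and 1.45 ± 0.21.

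Ifi44, an interferon-induced protein of the cytoplasm, stood at 69.3, 68.2 and 73.3 CPM in the iECKO libraries and 89.5, 96.7 and 63.8 CPM in the control libraries in interferon-high cells, against 27.8, 32.2 and 27.9 CPM in the iECKO libraries and 34.7, 36.8 and 33.2 CPM in the control libraries in matched cells. These ranges did not meet either, and the log2 difference was 1.27 ± 0.06. Xaf1, an antagonist of the caspase inhibitor XIAP, rose by 0.90 ± 0.05, Rtp4, a chaperone of receptor trafficking that interferon induces, by 0.92 ± 0.05, Slfn2, a Schlafen protein, by 0.91 ± 0.05, and Parp14, a mono-ADP-ribosyltransferase, by 0.87 ± 0.04. Among the 12 largest rises at an average log2 CPM of at least 5, the largest adjusted p was 9.32e-12. Smaller rises were seen in abundant membrane effectors. Bst2, or tetherin, which holds budding virus at the cell surface, rose by 0.54 ± 0.04, and Ifitm3, which blocks virus fusion, by 0.27 ± 0.03. Ifi27l2a was higher in 6 of 6 libraries but did not pass (0.46 ± 0.11, adjusted p = 0.0721).

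Part of the regulators of the response rose. Of 22 sensors and signalling genes tested, 9 were higher and 2 lower. Irf7, the transcription factor that amplifies type I interferon responses, stood at 96.2, 54.8 and 119.97 CPM in the iECKO libraries and 134, 82.2 and 98.1 CPM in the control libraries in interferon-high cells, against 44.9, 27.7 and 48.8 CPM in the iECKO libraries and 56.2, 39.7 and 52.7 CPM in the control libraries in matched cells. The library iECKO 2 was lowest in both kinds of cell, so the ranges overlap slightly, but the rise was present in all 6 libraries (1.12 ± 0.05, edgeR adjusted p = 7.95e-18). Usp18, which removes ISG15 from proteins and dampens IFNAR2 signalling, stood at 54.9, 62.5 and 62.8 CPM in the iECKO libraries and 70.7, 64.9 and 58.7 CPM in the control libraries in interferon-high cells, against 27.1, 23.8 and 24.0 CPM in the iECKO libraries and 34.0, 25.2 and 23.1 CPM in the control libraries in matched cells. All 6 interferon-high values exceeded all 6 matched ones (1.26 ± 0.07). The RNA sensors Ifih1, or MDA5, and Dhx58, or LGP2, rose by 0.87 ± 0.06 and 1.17 ± 0.15, the nucleic acid sensor Zbp1 by 1.83 ± 0.14, and Stat2 by 0.84 ± 0.06. Irf1 did not pass (0.15 ± 0.05, adjusted p = 0.126). Those that were lower were Irf8, a factor of myeloid cells (−0.81 ± 0.20), and Socs3, a feedback inhibitor of JAK signalling and an immediate-early gene (−0.31 ± 0.05).

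All 5 genes of ISG15 conjugation were higher. Besides Usp18 they were the ligase Herc6 (0.69 ± 0.07), the conjugating enzyme Ube2l6 (0.36 ± 0.08), Trim25 (0.31 ± 0.04) and the activating enzyme Uba7 (0.26 ± 0.07, adjusted p = 0.0174 by edgeR). Among the guanylate-binding proteins and immunity-related GTPases, which act at the membranes of vacuoles that hold pathogens, 13 of 15 tested were higher, with a median of 0.76. Irgm1 stood at 108, 85.4 and 106 CPM in the iECKO libraries and 123, 116 and 103 CPM in the control libraries in interferon-high cells, against 49.0, 45.7 and 47.5 CPM in the iECKO libraries and 56.4, 70.1 and 52.9 CPM in the control libraries in matched cells. The difference was 1.02 ± 0.05, with no overlap between the kinds of cell. Ifi47 rose by 1.01 ± 0.06, Igtp by 0.92 ± 0.05, Irgm2 by 0.83 ± 0.05, and Tgtp1 and Tgtp2, a near-identical pair whose reads may be shared, by 1.17 ± 0.14 and 1.18 ± 0.10.

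MHC class I presentation rose by less. Of 21 genes tested, 15 were higher, 0 lower, and the median was 0.21. The transporter subunit Tap1 led (0.63 ± 0.07), followed by Nlrc5, the transactivator of class I genes (0.57 ± 0.15), and the immunoproteasome subunits Psmb8 (0.37 ± 0.04) and Psmb9 (0.33 ± 0.05). The presenting chains themselves differed little. B2m, beta-2 microglobulin, stood at 1599.8, 1255 and 1305 CPM in the iECKO libraries and 1266, 1518 and 1113 CPM in the control libraries in interferon-high cells, against 1360.4, 1032 and 1126 CPM in the iECKO libraries and 1224, 1454 and 1029.8 CPM in the control libraries in matched cells. The kinds of cell overlap across libraries, although the difference of 0.16 ± 0.03 was in the same direction in all 6. H2-D1 rose by 0.17 ± 0.03 and H2-K1 did not pass (0.08 ± 0.03, adjusted p = 0.218). None of 7 MHC class II genes passed in either direction.

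Some inflammatory and cell death genes outside this set were also higher. The shares were 25% of chemokine-related genes, 12.5% of adhesion and NF-kappaB genes and 30.8% of cell death genes, against 2.48% of all genes. Of 8 chemokine-related genes tested, 2 were higher, Cxcl12, a chemokine of arterial endothelium (0.38 ± 0.04), and Cx3cl1, or fractalkine (0.17 ± 0.05). Against matched cells of the same vessel zone, the difference was 0.165 ± 0.03 for Cxcl12, while Cx3cl1 did not pass (0.04 ± 0.05, edgeR adjusted p = 0.83). Cxcl10, a chemokine that draws T cells and a common interferon target, stood at 125, 10.8 and 34.4 CPM in the iECKO libraries and 3.24, 32.8 and 11.8 CPM in the control libraries in interferon-high cells, against 4.77, 3.22 and 5.76 CPM in the iECKO libraries and 5.15, 27.7 and 8.04 CPM in the control libraries in matched cells. The difference of 1.90 ± 0.71 did not pass (adjusted p = 0.305). It came from few cells: 34 of 401, 6 of 142 and 38 of 698 interferon-high cells of the iECKO libraries had a Cxcl10 UMI, against 13 of 490, 23 of 444 and 24 of 497 in the control libraries, and 1 cell held 381 of the 584 UMIs in iECKO 1. Of 16 adhesion and NF-kappaB genes, 2 were higher, Cd274, or PD-L1, an inhibitory ligand of T cells that interferons induce (0.92 ± 0.09), and Nfkb2 (0.27 ± 0.07). The leukocyte adhesion molecules Vcam1 and Icam1 did not pass, with log2 differences of 0.05 ± 0.11 and −0.18 ± 0.13. Of 13 cell death genes, 4 were higher, among them the pore-forming Gsdmd (0.31 ± 0.08) and the death ligand Tnfsf10 (0.22 ± 0.04).

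**Figure D3:**
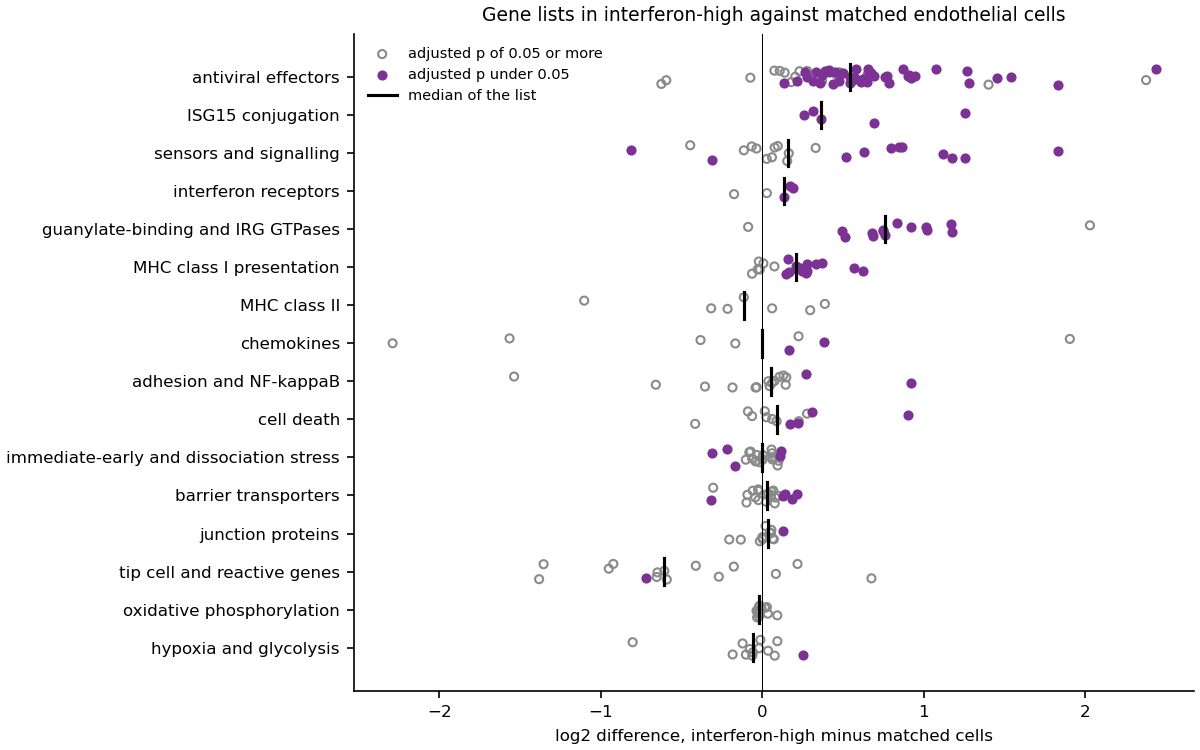
Log2 difference between interferon-high and matched endothelial cells (x axis) for each gene of 16 lists (y axis); filled points passed an adjusted p of 0.05 in edgeR and bars are list medians. The medians of the effector, conjugation, GTPase and class I lists lie to the right of 0 with no gene that passed on the left, and most other lists straddle it.

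Barrier and housekeeping lists had medians near 0, but some of their genes passed. The median log2 differences of the barrier transporter, junction and oxidative phosphorylation lists were 0.03, 0.03 and −0.02. Cldn5 itself stood at 2548, 2123 and 2701 CPM in the iECKO libraries and 4867, 4559 and 5045 CPM in the control libraries in interferon-high cells, against 2799, 2308 and 2929.7 CPM in the iECKO libraries and 4677, 4228 and 4664 CPM in the control libraries in matched cells. It was lower in the 3 iECKO libraries and higher in the 3 control libraries, and the pooled difference of −0.01 ± 0.03 did not pass (adjusted p = 0.925). Of 22 barrier transporters tested, 4 were higher (18.2%, against 2.48% of all genes). Among them were the thyroxine and anion carrier Slco1c1 (0.21 ± 0.04) and the efflux pump Abcb1a (0.13 ± 0.03). The amino acid carrier Slc38a5, which is also a marker of the venous calls given below, was lower (−0.32 ± 0.04). Against matched cells of the same vessel zone, 6 of the 22 were higher and 1 lower. The glucose transporter Slc2a1 did not pass (0.08 ± 0.03). Of 12 junction genes, 1 (8.33%) was higher, the tight junction protein Ocln (0.13 ± 0.03). Of 13 oxidative phosphorylation genes, 0 passed in either direction. Of 23 immediate-early and dissociation genes, 2 (8.70%) were higher and 3 lower, where 2.48% and 2.01% of all genes were.

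The genes that were lower were of a different kind. The largest falls among well-expressed genes were in Adgrg6, an adhesion GPCR (−0.66 ± 0.10), Meox1, a homeobox factor (−0.62 ± 0.09), Ccn2, a matricellular protein (−0.59 ± 0.07), Nid1, of the basement membrane (−0.54 ± 0.11), Chst15, a chondroitin sulfotransferase (−0.53 ± 0.07), and the semaphorin and VEGF co-receptor Nrp2 (−0.50 ± 0.05). Adgrg6 and Chst15 did not pass against matched cells of the same vessel zone (edgeR adjusted p = 0.113 and 0.0598). Vwf, von Willebrand factor, stood at 733, 562 and 304 CPM in the iECKO libraries and 323, 687 and 449 CPM in the control libraries in interferon-high cells, against 867, 869 and 494 CPM in the iECKO libraries and 444, 962 and 527 CPM in the control libraries in matched cells. It was lower in each of the 6 libraries, with overlap between libraries (−0.45 ± 0.07, edgeR adjusted p = 0.00666). Vwf is also a marker of the venous calls given below, which were less frequent in interferon-high cells. Also lower were Ramp3, Tmem176a, Clec14a, Cd38 and Cpe, by log2 differences of −0.50 to −0.39.

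Of the 277 lower genes, 87 were lower by a log2 difference of at least 1, most of them with few counts. B cell markers were lower in interferon-high than in matched cells of every library. Fibroblast markers were lower in most libraries, by the most in iECKO 3 (1.98 against 17.4 CPM). They were higher in control 2 (4.58 against 2.54 CPM) and 0 in both kinds of cell in iECKO 2. The 4 B cell markers summed to 1.88 to 11.4 CPM in interferon-high cells and 5.64 to 26.5 CPM in matched cells, and the 5 fibroblast markers to 0 to 4.58 CPM and 0 to 17.4 CPM, with up to 2 of the B cell and 5 of the fibroblast markers at 0 in the interferon-high cells of a library. Their part in the lower genes was not tested. T and NK markers summed to 0 to 0.411 CPM and 0 to 2.32 CPM, microglial markers to 30.7 to 40.0 CPM and 27.6 to 39.9 CPM, and pericyte markers to 1.94 to 5.64 CPM and 1.98 to 7.52 CPM. Erythrocyte genes summed to 7025 to 13415 CPM in interferon-high cells and 2932 to 18195 CPM in matched cells. When cells with at least 2 UMIs of other cells' markers were left out (erythrocyte genes not counted, chosen after seeing the data), 73 to 341 interferon-high cells remained in a library and 164 genes were higher and 93 lower. Of the 342 higher genes 152 were called again, with all 12 of the leading ones, and 341 kept their sign, at a median log2 difference of 0.26, against 0.28 with all cells. Of the lower genes 223 could be tested, 51 were called and 222 kept their sign; of the 87, 34 could be tested, 4 were called and 33 kept their sign.

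Plvap, which encodes the diaphragm protein of fenestrae and caveolae and is low in mature barrier endothelium, stood at 49.9, 26.8 and 16.0 CPM in the iECKO libraries and 171, 57.9 and 108 CPM in the control libraries in interferon-high cells, against 96.4, 38.6 and 164 CPM in the iECKO libraries and 292, 175 and 196 CPM in the control libraries in matched cells. It was lower in 6 of 6 libraries but did not pass (−1.35 ± 0.39, adjusted p = 0.185). A Plvap UMI was present in 2.76, 2.11 and 1.83% of interferon-high cells of the iECKO libraries and 3.92, 7.21 and 3.33% of those of the control libraries, against 5.01, 2.82 and 4.26% and 7.84, 10.4 and 6.44% of matched cells. Without any cell holding a Plvap UMI (chosen after seeing the data), 328 genes were higher and 280 lower, and 287 of the 342 and 171 of 270 tested lower genes were called again. All 342 and 261 of the 270 kept their sign.

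**Figure D4:**
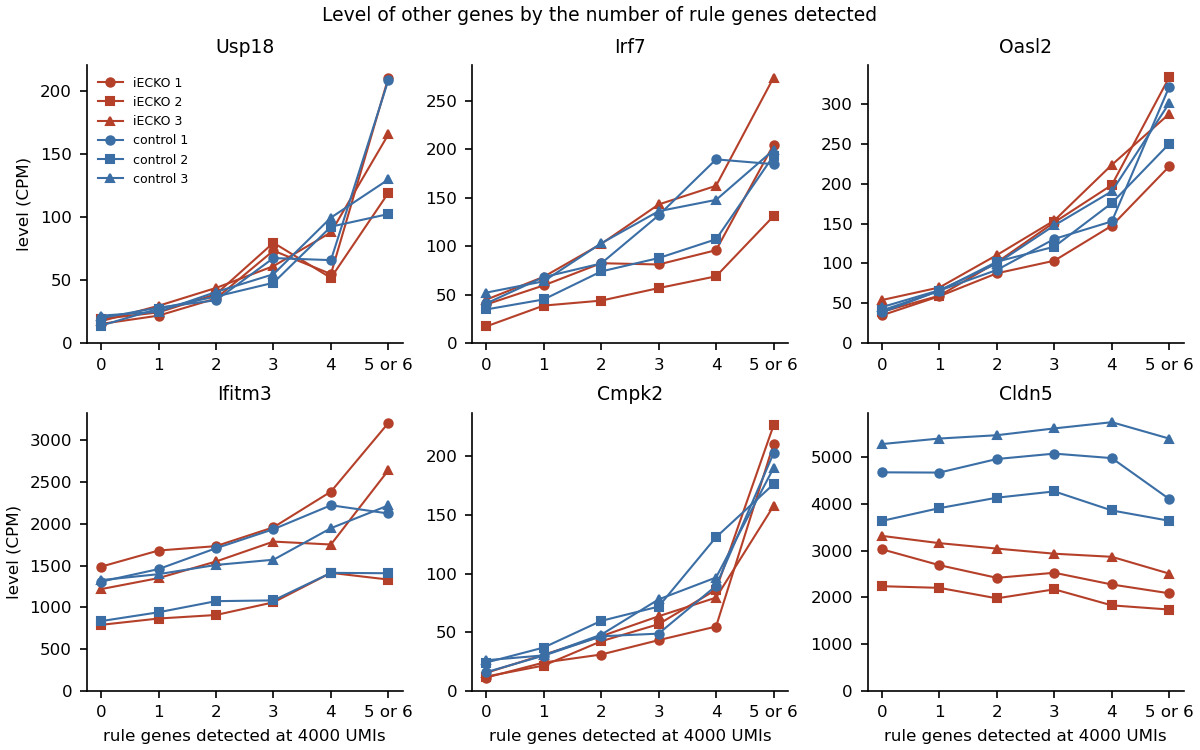
Level (CPM, y axes from 0) of 6 genes outside the rule in endothelial cells thinned to 4000 UMIs, by the number of the 6 rule genes detected (x axis), 1 line per library (iECKO red, control blue). Usp18, Irf7, Oasl2 and Cmpk2 are higher with 5 or 6 rule genes than with 0 in all 6 libraries, Ifitm3 by a smaller factor, and Cldn5 is lower in the 3 iECKO libraries and in control 1.

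The rise of other interferon-induced genes ran through the whole range of endothelial cells. In cells thinned to 4000 UMIs, the median over libraries of Oasl2 was 40.2 CPM with 0 rule genes, 65.8 with 1, 101 with 2, 139 with 3, 183 with 4 and 294 with 5 or 6. Over the same steps Usp18 stood at 18.3, 26.1, 37.9, 64.2, 76.8 and 147 CPM, and Irf7 at 40.5, 61.7, 82.3, 110, 127 and 196 CPM. None of the 3 genes stepped at the threshold of 4, as the plot of levels by number of rule genes shows. The abundant Ifitm3 went through 1264 CPM with 0 rule genes and 2174 CPM with 5 or 6. Cldn5 stood at 2085, 1738 and 2506 CPM with 5 or 6 rule genes in the iECKO libraries, against 3027, 2237 and 3313 CPM with 0, and so was lower in all 3. In the control libraries it stood at 4101, 3636 and 5394 CPM with 5 or 6 rule genes, against 4672, 3634 and 5277 CPM with 0. The cells with 5 or 6 rule genes numbered 21 to 127 in a library.

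**Figure D5:**
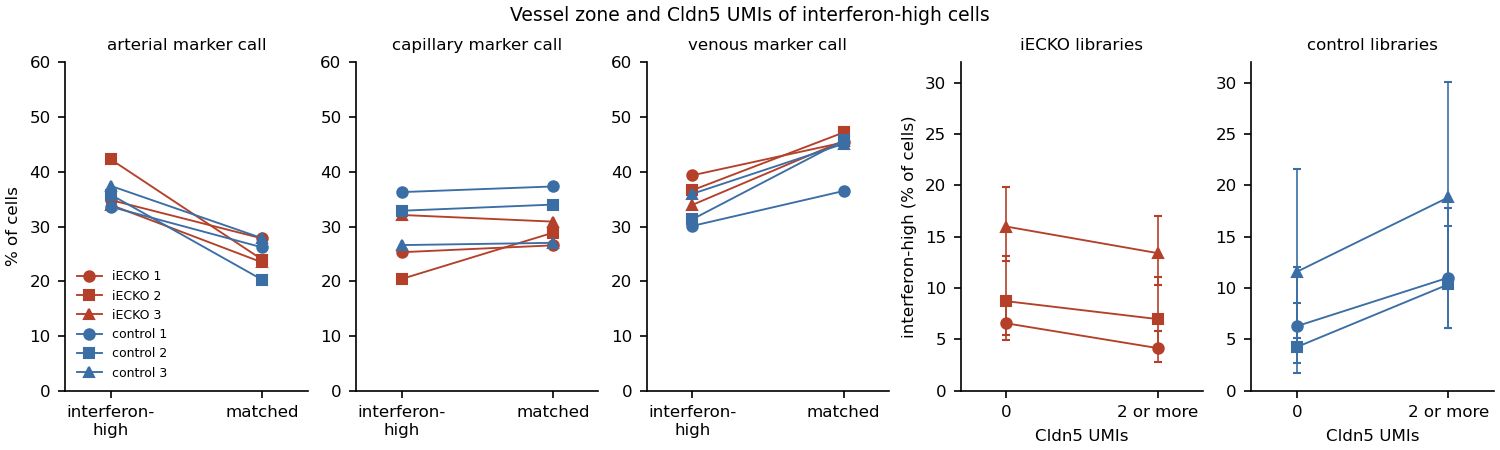
Left 3 panels, percent of cells (y axis) with an arterial, capillary or venous marker call in interferon-high and matched cells, joined by library; right 2 panels, percent of interferon-high cells among endothelial cells with 0 or at least 2 Cldn5 UMIs, with exact 95% binomial intervals (iECKO red, control blue). Arterial calls are more frequent in interferon-high cells in all 6 libraries and venous calls less frequent.

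Interferon-high cells were more often arterial. A cell was called arterial with at least 2 of 9 arterial markers and more of them than venous ones, venous likewise with at least 2 of 5, and capillary otherwise with any of 5 capillary markers. The venous markers were Slc38a5, Nr2f2, Vwf, Ackr1 and Il1r1. Arterial calls made up 34.8, 42.3 and 33.9% of interferon-high cells of the iECKO libraries and 33.6, 35.8 and 37.4% of those of the control libraries, against 27.8, 23.9 and 23.4% and 26.2, 20.3 and 27.9% of matched cells. No library overlapped. The mean difference was 11.4 ± 4.56 percentage points (SD, n = 6), present in 6 of 6 libraries (exact sign-flip test, p = 0.03125, 0.0469 after adjustment over the 3 zones). Venous calls made up 34.5 ± 3.46% of interferon-high and 44.3 ± 3.87% of matched cells, a difference of −9.71 ± 3.22 points that was negative in 6 of 6 libraries (p = 0.03125, exact sign-flip). Capillary calls did not differ beyond the spread (−1.84 ± 3.36 points, exact p = 0.156). The arterial difference was 11.9 ± 5.78 points in iECKO and 10.8 ± 4.21 points in control libraries (exact permutation p = 0.7, n = 3 each).

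The same order appeared when the zones were compared directly. With the rule genes thinned to 4000 UMIs a cell, 9.17 ± 3.27% of arterial, 6.58 ± 3.26% of capillary and 4.40 ± 2.27% of venous cells met the rule (SD, n = 6), although venous cells were the deepest. Arterial exceeded venous cells by 4.77 ± 1.70 points, arterial exceeded capillary cells by 2.59 ± 1.20 points and capillary exceeded venous cells by 2.19 ± 1.34 points, each in 6 of 6 libraries (exact sign-flip p = 0.03125, also after adjustment over the 3 pairs). Unthinned, venous cells lay above capillary cells in every library, at 10.1 to 27.4% and 6.03 to 20.1%.

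Vessel position moved with part of the gene differences. Of the 9 arterial markers, 5 were higher in interferon-high cells, Hey1 (0.70 ± 0.08), Sema3g (0.68 ± 0.05), Stmn2 (0.54 ± 0.04), Bmx (0.44 ± 0.06) and Vegfc (0.35 ± 0.06). Gkn3 (0.61 ± 0.18), Efnb2 (0.18 ± 0.08), Mgp (−0.55 ± 0.34) and Fbln5 (−1.16 ± 0.65) did not pass. Mgp is the most abundant of the 9. Their summed level was 639 to 1050.3 CPM in interferon-high cells and 693 to 1062 CPM in matched cells, which overlap. Within libraries the sum was higher in interferon-high cells in iECKO 1, control 1 and control 3. It was lower in iECKO 2, iECKO 3 and control 2. Alpl, an arterial gene outside the 9, was higher by 0.64 ± 0.05. With matched cells of the same zone call (chosen after seeing the data) the differences of Hey1, Sema3g and Alpl were 0.28, 0.16 and 0.18, and that of Bmx was −0.01. Hey1, Sema3g and Bmx are markers of the call, so the match by itself narrows their differences, while Alpl is not. Under that match 246 genes were higher and 226 lower. Of the 342 higher genes, 205 were called again (59.9% of the 342, 83.3% of the 246), and of the lower genes 136 (49.1% of the 277, 60.2% of the 226). The 12 leading higher genes all remained, at log2 differences of 0.87 to 1.41, and the antiviral list had 44 of its genes higher. Among the 12 leading lower genes 9 remained, and Adgrg6 (−0.53 ± 0.13), Chst15 (−0.52 ± 0.12) and Cpe (−0.18 ± 0.07) did not pass.

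The response motif was frequent in the promoters of the higher genes. Of 271 genes higher in interferon-high cells with a promoter window, 53 (19.6%) held GAAANNGAAA, against 387 of 10421 (3.71%) of all tested genes and 11 of 203 (5.42%) of the lower genes. Of the 12 leading higher genes 9 had a window and 2 of these the motif. A match is a string of letters in a window, not a site shown to be bound.

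The interferon-high cells of the 2 genotypes were compared as sums per library. With groups as labelled, 0 of 12634 genes passed in either direction (0% at an adjusted p under 0.05, edgeR). At an unadjusted p under 0.05 there were 607, and 58 passed with DESeq2. With no overlap between libraries, 667 (5.28%) were higher and 584 (4.62%) lower in iECKO. A gene without overlap has the smallest exact permutation p for 3 libraries a group, 0.1 over both directions. Shares of about this size therefore arise when labels are placed at random. Same-numbered libraries deviated together from their group means in interferon-high cells (correlation across 12651 genes 0.326, 0.229 and 0.194 for same numbers, and −0.223 to −0.025 for different ones). With the replicate number as a block, 110 genes (0.871%) were higher and 69 (0.546%) lower in iECKO. Cldn5 was lower by −0.95 ± 0.10 on the log2 scale with the block (adjusted p = 0.000117, against 0.274 without it).

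Few interferon-induced genes were among the genes called with the block, and for antiviral effectors the counts lay near the share of all genes. Of 57 antiviral effectors tested, 1 was higher with the block, the cytidine deaminase Apobec3 (0.54 ± 0.12), and 1 lower, Bst2 (−0.51 ± 0.12), where 0.871% and 0.546% of all genes were; the list's median without the block was −0.09, with 20 of 57 above 0. Of 22 sensors and signalling genes, 2 were higher, Irf8 (2.43 ± 0.43) and Tmem173, an adaptor of cytosolic DNA sensing (1.25 ± 0.29), both scarce, and 0 lower. Irf8 is a myeloid factor. Microglial markers summed to 40.0, 30.7 and 38.8 CPM in iECKO and 34.1, 33.2 and 38.9 CPM in control interferon-high cells. B cell markers summed there to 9.03, 1.88 and 11.4 CPM in iECKO and 4.59, 2.98 and 6.13 CPM in control libraries. Whether RNA of other cells had a part in the Irf8 difference was not tested. Of 15 GTPases, 21 class I genes and 5 receptors, 0 passed in either direction. Of the 15 GTPases, 0 were higher and 4 lower in iECKO with no overlap between libraries, and of the 57 antiviral effectors 3 and 7. Over all genes, 5.28% were higher and 4.62% lower without overlap. The median of the GTPase list without the block was −0.21. Oasl2, Usp18 and Cmpk2, high in interferon-high cells of both groups, did not pass between them, with log2 differences under the block of −0.02 ± 0.11 for Oasl2, −0.07 ± 0.12 for Usp18 and −0.32 ± 0.13 for Cmpk2. For these 3 genes the adjusted p was 0.979, 0.897 and 0.316, which does not show that they were equal.

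Genes of vessel growth and NF-kappaB were also called with the block, and none of them without it. The gene lists were chosen with results of these data in view, so their counts here are descriptions. Of 15 tip cell and reactive genes, 5 were higher with the block and 1 lower, where 0.871% and 0.546% of all genes were. Angpt2, a destabilising Tie2 ligand, averaged 29.4 ± 6.76 CPM in iECKO and 9.52 ± 4.40 CPM in control interferon-high cells (1.71 ± 0.18), and the cyclin Ccnd1 236 ± 21.1 CPM and 93.6 ± 20.9 CPM (1.34 ± 0.12). Esm1, a secreted proteoglycan of sprouting endothelium, was the lower one, at 7.11, 1.29 and 4.80 CPM in iECKO and 48.2, 19.8 and 53.4 CPM in control libraries (−3.20 ± 0.20, adjusted p = 3.01e-07 with the block and 0.209 without it). Of 16 adhesion and NF-kappaB genes, 3 were higher, Nfkb2 (1.08 ± 0.15), Relb (0.89 ± 0.16) and the apoptosis inhibitor Birc3 (0.92 ± 0.19). Cx3cl1 was higher by 0.99 ± 0.12, at 151 ± 35.5 CPM in iECKO and 74.8 ± 4.42 CPM in control cells. Meox1 and Nid1, which were lower in interferon-high than in matched cells, were higher in the interferon-high cells of iECKO than of control mice, by 1.12 ± 0.14 and 0.80 ± 0.12. In matched cells these genes differed between the genotypes in the same direction on average. Cx3cl1 stood there at 184, 117 and 103 CPM in iECKO and 74.9, 68.4 and 64.6 CPM in control libraries, Nfkb2 at 53.2, 45.1 and 25.6 CPM and 17.1, 25.7 and 18.3 CPM, and Meox1 at 80.7, 82.4 and 57.8 CPM and 30.7, 23.8 and 27.4 CPM. For none of Angpt2, Ccnd1, Esm1, Nfkb2, Relb, Birc3, Cx3cl1, Meox1 and Nid1 did the step between matched and interferon-high cells differ between the genotypes at an adjusted p under 0.05.

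The largest differences with the block were in scarce genes. Ppm1j, a protein phosphatase, stood at 23.6, 7.09 and 4.90 CPM in iECKO and 1.09, 1.21 and 1.20 CPM in control libraries (3.06 ± 0.42), and Slco5a1, an organic anion transporter relative, at 1.46, 4.51 and 2.98 CPM and 0.218, 0.484 and 0.532 CPM (2.69 ± 0.61). Pgf, placental growth factor, had 9.42, 0 and 1.34 CPM in iECKO and 0.218, 0.242 and 0 CPM in control libraries, so that its groups overlap. The AP-1 subunit Fosl1 and the ubiquitin ligase Rnf183 were as scarce. On the other side Ces2e, a carboxylesterase, stood at 1.88, 1.29 and 0.480 CPM in iECKO and 6.98, 5.32 and 4.92 CPM in control libraries (−2.45 ± 0.44), and the water channel Aqp1 at 0.418, 0 and 1.73 CPM and 2.40, 3.87 and 6.91 CPM (−2.30 ± 0.48). Bmp6 was lower by −1.97 ± 0.44, and Calca, the precursor of calcitonin gene-related peptide, had 0 CPM in all 3 iECKO libraries and 0.218, 0.484 and 3.32 CPM in the control libraries.

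The step between matched and interferon-high cells differed between the genotypes for 1 of 13767 genes (0.00726%) and in the other direction for 0. Gbp2, a guanylate-binding protein that both interferon types induce, stood at 104, 144 and 152 CPM in the iECKO libraries and 95.7, 129 and 118 CPM in the control libraries in interferon-high cells, against 44.3, 71.5 and 74.7 CPM in the iECKO libraries and 67.0, 92.7 and 85.8 CPM in the control libraries in matched cells. Its log2 difference was 1.08 ± 0.08 in iECKO and 0.47 ± 0.05 in control libraries, and the interaction was 0.60 ± 0.09 (edgeR adjusted p = 0.00253). With matched cells of the same zone call, 0 genes passed.

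The share of interferon-high cells was also taken by the Cldn5 UMIs of the cell, among cells with at least 2000 UMIs, with cells of at least 2 Cldn5 UMIs matched on total UMIs to those with 0. In the iECKO libraries, 6.58% (49 of 745), 8.73% (20 of 229) and 16.0% (68 of 425) of cells with 0 Cldn5 UMIs were interferon-high, against 4.16% (31), 6.99% (16) and 13.4% (57) of as many matched cells with at least 2. The difference was positive in 3 of 3 libraries, 2.25 ± 0.445 percentage points (SD; exact sign-flip p = 0.25, the smallest that 3 libraries allow), and the intervals of the shares overlap in each library. In the control libraries, 6.30% (8 of 127), 4.27% (7 of 164) and 11.6% (8 of 69) of cells with 0 Cldn5 UMIs were interferon-high, against 11% (14), 10.4% (17) and 18.8% (13) of matched cells with at least 2, a difference of −6.02 ± 1.26 points. Between the genotypes the differences were 8.27 points apart (exact permutation p = 0.1, the smallest possible with n = 3 each).

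The cells with 0 Cldn5 UMIs were not the same kind of cell in the 2 genotypes. A Plvap UMI was present in 11.4, 14.4 and 12.9% of them in the iECKO libraries, against 89.0, 88.4 and 94.2% in the control libraries. Slc2a1 stood at 1764, 1197 and 1277 CPM in iECKO cells with 0 Cldn5 UMIs and 2180, 1321 and 1588 CPM in their matched cells with at least 2, but at 102, 76.7 and 36.0 CPM in control cells with 0 and 1838, 1024 and 1612 CPM in their matched cells. Without any cell holding a Plvap UMI, the iECKO shares were 6.97, 9.18 and 17.8% with 0 Cldn5 UMIs, against 3.79, 7.14 and 12.4% with at least 2, a difference of 3.54 ± 1.71 points. Only 14, 19 and 4 control cells with 0 Cldn5 UMIs then remained, too few to compare. With cells matched also on zone call, the difference was 3.16 ± 1.12 points in iECKO and −8.51 ± 2.76 points in control libraries.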

How the data were processed

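The authors deposited UMI counts per gene and barcode from 10x Genomics libraries; the file headers name Cell Ranger 6.1.1 and the submitters' processing notes name mm10. The lowest barcode in the files had 500 UMIs. The rule for the cells, the gene lists and the comparisons were chosen with earlier results of these data known. Counts were summed per library over interferon-high cells and over matched cells and tested with edgeR 4.0.16 (quasi-likelihood, robust, TMM, genes with at least 20 UMIs over the sums, Benjamini-Hochberg adjustment over all genes tested). The fit against matched cells and the genotype fit without the block were run on simulated counts. The fits with the block and for the difference of differences were not. The design called for 10 matched cells per interferon-high cell. That could not be had in iECKO 3, where 698 cells faced 2393 others, so 1 was taken within 10% of its UMIs. Shares were compared with exact permutation and sign-flip tests (scipy 1.17.1), and thinning drew UMIs without replacement. Intervals are Clopper-Pearson at 95% and cover counting error only. Same-numbered libraries deviated together (correlations of 0.326, 0.229 and 0.194), so the replicate number was used as a block for the comparison of genotypes beside the fit without it. Named genes were the 6 of the rule, the 12 largest changes in each direction with 1 sign in all 6 libraries and an average log2 CPM of at least 5, up to 6 per list, the receptors and ligands, the 5 largest in each direction between genotypes, and Cldn5; other named genes were chosen after their values were seen. Doublets were scored with Scrublet (scanpy 1.11.5) and left in, except in an alternative. Alternatives changed the number of rule genes, depth, filters, doublets, matching, normalization, tool and libraries. Promoter windows and sequences came from RefSeq (GRCm38.p6), and gene positions from the GENCODE annotation of GRCm38.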

Additional observations from a re-analysis of the deposited data

Results flagged for a closer look

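Gbp2 rose more in the interferon-high cells of iECKO than of control libraries, by 0.60 on the log2 scale. A test of the difference between genotypes marked it, the only gene of 13767 to pass (edgeR adjusted p = 0.00253), and its matched cells had 44.3 to 74.7 CPM in iECKO and 67.0 to 92.7 CPM in control libraries, while its interferon-high cells had 104 to 152 CPM and 95.7 to 129 CPM.

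The share of interferon-high cells by Cldn5 UMIs differed between the genotypes by 8.27 percentage points, because it was higher with 0 Cldn5 UMIs in all 3 iECKO libraries and lower in all 3 control libraries. The exact permutation test gave p = 0.1, the smallest it allows. Of the control cells with 0 Cldn5 UMIs, 88.4 to 94.2% held a Plvap UMI, against 11.4 to 14.4% in iECKO libraries, so genotype and kind of cell cannot be told apart there.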

How the results depend on the processing

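The difference in share between genotypes turned to −0.286 points with cells thinned to 2000 UMIs, and ranged from −3.53 (without iECKO 3) to 3.84 with 1 library left out, at −0.0275 without control 2. With 1 library left out, the arterial difference was 10.0 to 12.3 points and the venous one −10.4 to −8.77, where 5 libraries cannot pass an exact p of 0.05. The difference by Cldn5 UMIs in iECKO was −4.22 points without matching on UMIs. Genes higher in interferon-high cells numbered 148 when cells with other cells' markers were left out (164 with erythrocyte genes not counted), 180 with DESeq2 and 228 to 338 with 1 library left out. Lower genes numbered 90 and 93 in the first pair of settings, 106 with DESeq2, 428 against cells with at most 1 rule gene, 445 with no filter, and 148 (without iECKO 3) to 357 with 1 library left out. Fewer cells remained in the marker settings; other causes were not tested. Between genotypes, the count of 0 became 7 with 5 of 6 rule genes, 5 with at most 5% mitochondrial UMIs, 4 and 7 in the marker settings, 5 without Plvap cells, 58 with DESeq2, 82 with no filter, 179 with the replicate block, and 0 to 29 (without iECKO 3) with 1 library left out. For the difference of differences, the count of 1 became 13 with 3 of 6 rule genes, 5 with 5 of 6, 2 with Ifit3 and Ifit3b as 1 gene, 25 in the second marker setting, 0 with matching by zone, 2 without Plvap cells, 2 with DESeq2, 10 with no filter, and 1 to 22 (without iECKO 3) with 1 library left out. Gbp2 kept its call in 14 of 18 settings. Among 80 named genes that passed against matched cells, the call held in 1476 of 1680 gene-setting pairs, and only Bmx reversed, to −0.041 without cells holding other markers and −0.011 with matching by zone. The marker setting without erythrocyte genes, the zone match and the Plvap setting were chosen after seeing the data. The planned match of 5 cells per interferon-high cell was not run, since iECKO 3 held too few. With 3 libraries a group, whose shares had SDs of 8.35 and 3.34 points in iECKO and control, the difference of 1.29 points could not be resolved.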
